A study of Homo sapiens with 88 samples.

Results

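The vehicle arrays of 6 established human small cell lung cancer (SCLC) lines were compared between day 7 and day 2 of culture. All arrays of COLO668, NCI-H146, NCI-H446, NCI-H510, NCI-H526 and SHP-77 labelled DMSO at either day were taken, which gave 24 of the 88 arrays in the series, 2 for each line and day. DMSO is the solvent in which the study's compound was given, so these cells had no inhibitor. All lines grew in RPMI with serum, the labels record their passages as multiple, and each line is an established culture derived from 1 tumour. The study itself asked how GSK2879552, which inhibits LSD1, an enzyme that removes methyl groups from histones, changes expression in SCLC lines that do or do not respond to it. For the same lines, 13 DMSO arrays of day 4 and 27 arrays of day 2 and day 7 from the arm that the titles call 552A were also read. The treatment protocol names DMSO or 1 µM GSK2879552, and no label states that 552A is that compound. No source used here gives seeding density, medium changes or cell number. The arrays were Affymetrix HG-U133 Plus 2.0, which hold short probes for most human genes, and levels are on the log2 scale, so that a difference of 1 is a 2-fold change.

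Cells left in culture use up glucose and oxygen and release lactate and other products into the medium. When oxygen falls, the prolyl hydroxylases that mark the factors HIF1A and EPAS1 for destruction lose activity, and these factors switch on genes for glucose uptake, glycolysis, blood vessel growth and the removal of mitochondria. The same genes also answer to other stresses, and many glycolytic enzymes are abundant in tumour cells at any oxygen level. SCLC cells carry neuroendocrine markers and most SCLC lines grow as floating clumps. INSM1, a transcription factor that defines neuroendocrine cells, stood between 12.36 and 13.59 in all 6 lines as a mean over both days. CHGA, which encodes a secretory granule protein, stood between 11.47 and 13.57. NCI-H526 alone carried the tuft cell factor POU2F3 at a high level, 12.45 against 4.53 to 4.74 in the other lines. NCI-H446 had EPCAM, an epithelial adhesion molecule, at 6.68 against 13.25 to 14.20 in the others.

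RNA integrity differed between arrays and is given first. The ACTB 3' minus 5' control signal rises when the 5' ends of transcripts are lost. It was above the limit of 0.8 on 2 of the 24 arrays, SHP-77 day 7 replicate 1 at 1.67 and COLO668 day 7 replicate 1 at 1.11. Between day 2 and day 7 the signal changed by 0.82 in SHP-77, 0.15 in COLO668 and -0.24 in NCI-H510, and by at most 0.03 in either direction in the others. The mean change over the 6 lines was 0.11 ± 0.37 (SD), and an exact two-sided sign-flip permutation test gave p = 0.719, where 6 lines allow no p below 0.0312. The GAPDH control signal changed by 0.69 in SHP-77 and by -0.18 to 0.02 in the other lines. List counts or list medians for SHP-77 and COLO668 are therefore given with and without these arrays where the count turns on them. The same holds for single genes whose call does. Leaving them out leaves 1 array at day 7 in each of these lines. Array medians lay between 7.36 and 7.46.

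**Figure D1:**
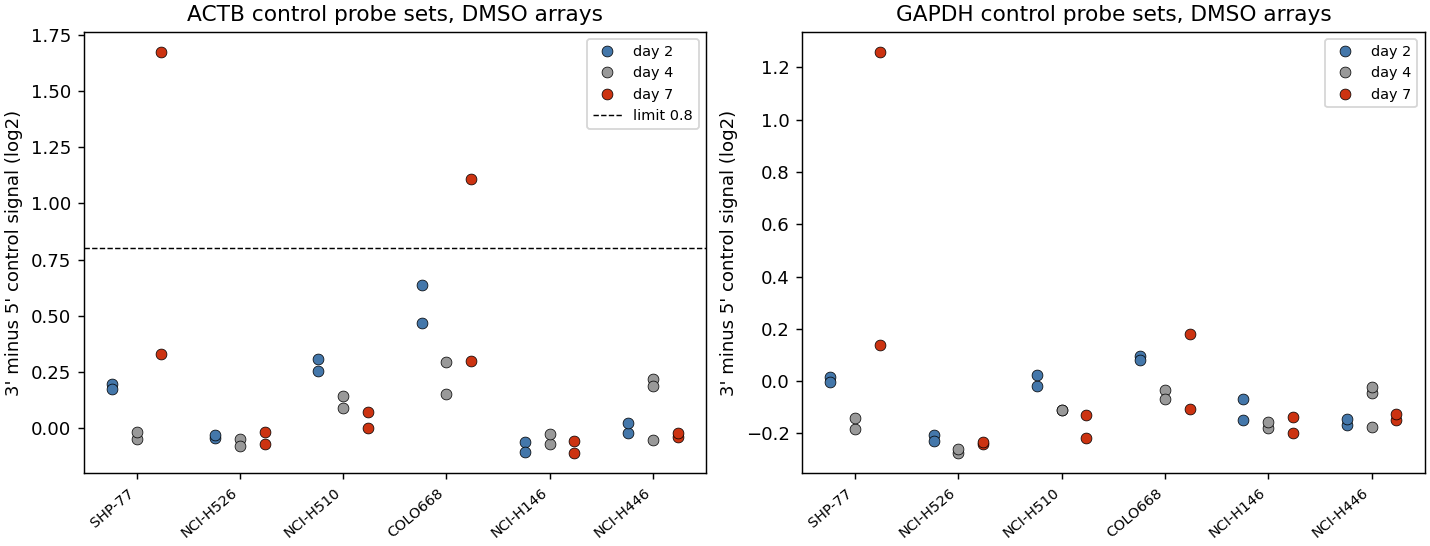
The 3' minus 5' control signal (log2) of ACTB (left) and GAPDH (right) is plotted for each DMSO array by line, with days 2, 4 and 7 in blue, grey and red and the ACTB limit of 0.8 as a dashed line. SHP-77 day 7 replicate 1 (ACTB 1.67) and COLO668 day 7 replicate 1 (ACTB 1.11) are the only arrays above the limit.

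Day 7 was first compared with day 2 across lines, with 1 difference per line as the replicate. Of 15352 genes tested, limma called 1 at an adjusted p below 0.05 (0.00651%), HINT3, which encodes a nucleotide hydrolase of the histidine triad family. At an unadjusted p below 0.05, 923 genes were higher at day 7 (6.01%) and 586 lower (3.82%), together 9.83%, where 768 would pass in all if no gene changed. At this number of lines no other single gene passed adjustment, which does not show that its change was small. Genes other than HINT3 are described below by values and counts.

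HINT3 rose by 0.69 ± 0.06 (SE, n = 6 lines, limma adjusted p = 0.00319) and was higher at day 7 in 6 of 6 lines. In SHP-77 its day 2 arrays stood at 8.91 and 10.49 and its day 7 arrays at 10.54 and 10.62. In NCI-H526 they stood at 9.51 and 10.84 against 10.82 and 10.84, in NCI-H510 at 8.41 and 9.57 against 9.33 and 9.96, and in COLO668 at 10.06 and 10.82 against 10.84 and 10.99. In NCI-H146 they stood at 11.31 and 9.86 against 11.28 and 11.43, and in NCI-H446 at 9.82 and 9.64 against 10.56 and 10.29. In 5 of the lines 1 day 2 array was thus low and the other was near the day 7 arrays. The days overlapped in NCI-H526, NCI-H510 and NCI-H146. HINT3 was no longer called when any 1 of 8 day 2 arrays was left out, and its adjusted p ranged from 0.000562 to 0.414 over 40 alternatives. Its other probe sets changed by 0.32 and 0.61. With a gene's probe sets averaged, limma called 0 genes.

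Among the lists of genes of known function, that of hypoxia and glycolysis had the largest shift. All lists and their members were chosen with earlier results of these data known, so the rank and counts of this list are a description. Of its 37 genes, 36 were tested, and 35 of these had a mean change above 0. The median change of the list was 0.23, against 0.01 over all genes tested. At an unadjusted p below 0.05, 21 of 36 members were higher at day 7 and 0 were lower, against 6.01% and 3.82% of all genes. Among these 21 was SLC2A3, whose probe set had a mean of 5.11 over all arrays, under the level of 6.09 called dim here. In 6 of 6 lines 11 members were higher and 0 lower, against 3.73% and 2.34% of all genes. After adjustment over all genes 0 members were called in the shared test by limma. An array-level fit, in which the spread between arrays and not between lines set the error, called 20 of 36 higher and 0 lower, against 2.82% of all genes higher and 1.6% lower. That fit speaks only for these 6 lines.

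The members with the largest changes act in sensing, signalling and fuel use. BHLHE40 encodes a repressor of the clock and of lipid genes that HIF1A induces. Its mean change was 1.03 ± 0.15 (SE, n = 6 lines, limma adjusted p = 0.200), and it was higher at day 7 in 6 of 6 lines. In SHP-77 its day 2 arrays stood at 9.95 and 10.21 and its day 7 arrays at 11.81 and 11.58, and in COLO668 at 9.51 and 9.65 against 10.90 and 11.25. In NCI-H446 the values were 8.70 and 8.69 against 9.78 and 9.73, and in NCI-H510 6.95 and 7.12 against 7.79 and 7.73. In NCI-H146, where BHLHE40 was lowest, they were 6.24 and 6.07 against 6.32 and 6.59. The days were apart in these 5 lines. In NCI-H526 day 2 gave 7.85 and 8.98 and day 7 gave 8.98 and 9.76, so that the second day 2 array was level with the lower day 7 array. A second probe set of the gene changed by 0.40 and was higher in 5 of 6 lines.

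HK2 encodes hexokinase 2, which commits glucose to glycolysis. It rose in SHP-77 from 7.67 and 7.68 to 10.06 and 9.69, a change of 2.20 ± 0.33 (SE of the fit over all arrays, limma adjusted p = 1.43e-05). It rose in COLO668 from 8.42 and 8.13 to 10.46 and 10.41. In NCI-H526 the day 2 arrays were 7.05 and 8.75 and the day 7 arrays 8.74 and 9.09. In NCI-H510 the 4 arrays lay between 6.68 and 7.02, in NCI-H146 between 11.91 and 12.06, and in NCI-H446 between 11.48 and 11.59. The rise was thus called in SHP-77 and COLO668, while NCI-H146 and NCI-H446, where HK2 was highest at day 2, changed by 0.01 and 0.10. The mean over lines was 0.88 ± 0.31 (limma adjusted p = 0.429), and the lines differed (moderated F test, adjusted p = 0.000257). Its other probe sets changed by 0.01 and 0.07.

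VEGFA encodes the main growth signal for blood vessels. In COLO668 it rose from 10.38 and 10.29 to 12.02 and 11.86, and in SHP-77 from 10.14 and 10.40 to 11.26 and 11.45. The values were 10.21 and 10.01 against 10.86 and 10.69 in NCI-H446, and 8.86 and 8.70 against 9.51 and 9.28 in NCI-H146. The days did not overlap in these 4 lines. They did in NCI-H526, with 9.43 and 10.55 against 10.26 and 11.02, and in NCI-H510, with 10.26 and 10.21 against 10.17 and 10.23. The mean change was 0.76 ± 0.16 (limma adjusted p = 0.304), with a difference between lines (F test, adjusted p = 0.0322). Its 3 other probe sets changed by 0.48 to 0.72.

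ALDOC, the brain form of the glycolytic enzyme aldolase, changed by 0.65 ± 0.13 and was higher in 6 of 6 lines. Its day 2 and day 7 arrays were 9.16 and 9.01 against 10.32 and 10.47 in COLO668, 9.84 and 9.98 against 10.49 and 10.88 in SHP-77, and 9.10 and 9.24 against 10.04 and 9.98 in NCI-H446. They were 8.87 and 9.45 against 9.75 and 9.88 in NCI-H526, 8.17 and 8.15 against 8.36 and 8.42 in NCI-H146, and 9.69 and 9.95 against 9.94 and 9.90 in NCI-H510. Only in NCI-H510 did the days overlap. BNIP3 and BNIP3L, related proteins that mark mitochondria for removal, changed by 0.54 ± 0.11 and 0.55 ± 0.16, each higher in 6 of 6 lines. For BNIP3L the day 7 arrays lay above both day 2 arrays in 6 of 6 lines, and the lines differed in size (F test, adjusted p = 1.84e-06), from 0.07 in NCI-H510 to 1.54 in COLO668. DDIT4, an inhibitor of the growth kinase mTORC1, changed by 0.49 ± 0.08 and was higher in 6 of 6 lines, with days that did not overlap in 4.

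**Figure D2:**
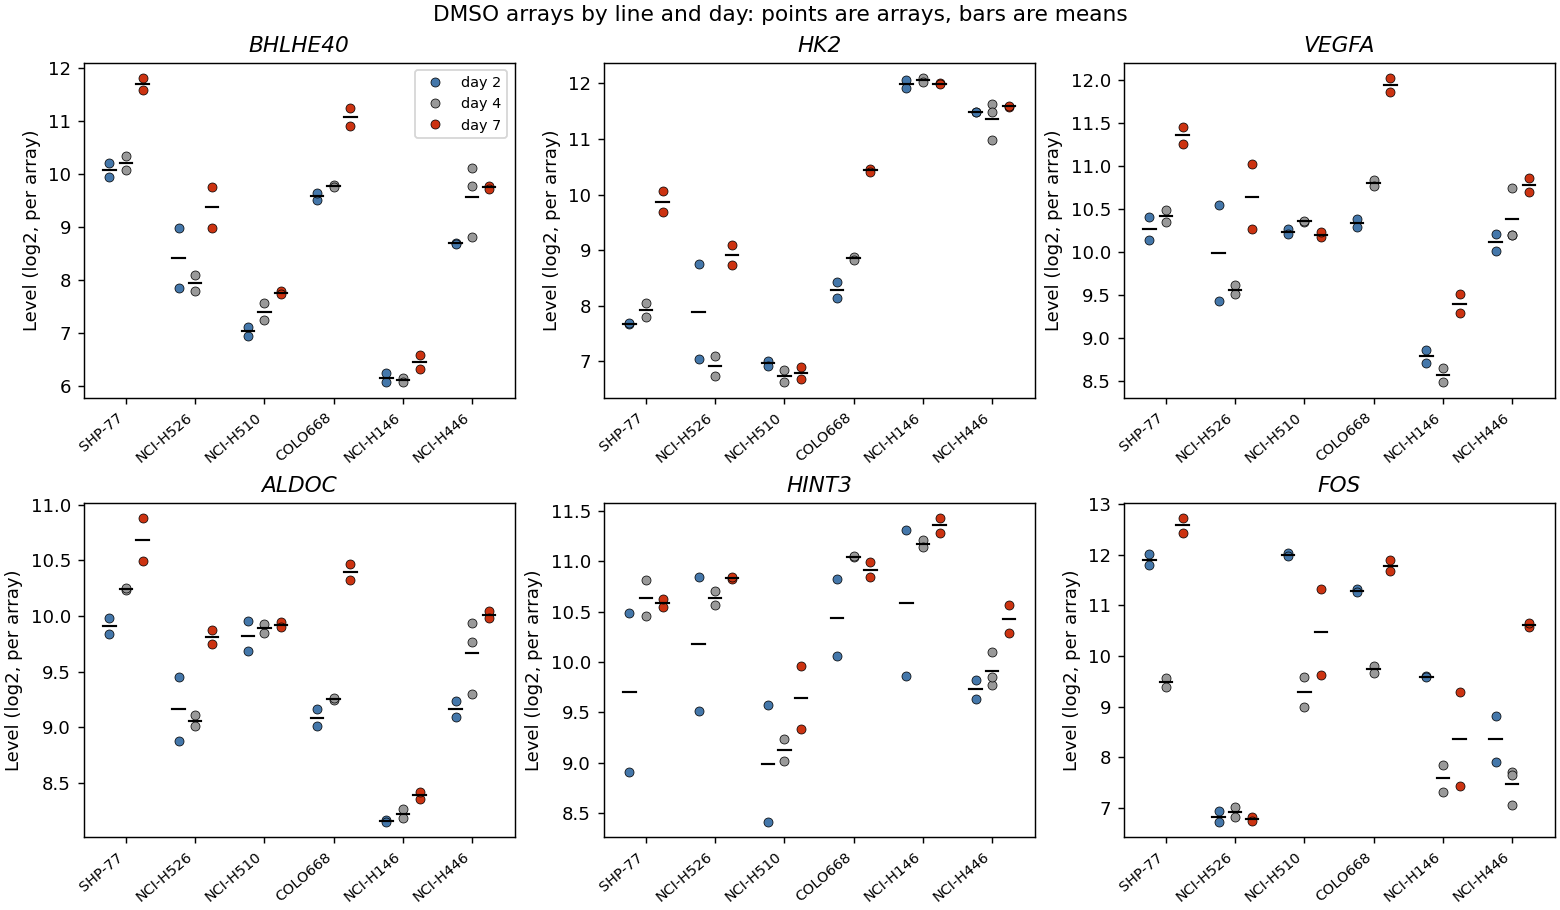
Each point is 1 DMSO array and each bar the mean of its line and day, with the log2 level on the y axis and days 2, 4 and 7 in blue, grey and red. Both day 7 arrays of BHLHE40, HK2, VEGFA and ALDOC lie above both day 2 arrays in SHP-77 and COLO668, HINT3 has 1 low day 2 array in 5 lines, and the mean of FOS is lowest at day 4 in 5 lines.

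Mean changes were 0.54 ± 0.13 for P4HA1, a collagen prolyl hydroxylase, and 0.53 ± 0.13 for PFKFB4, which sets the pace of glycolysis. For PDK1, a kinase that inhibits pyruvate dehydrogenase, the mean change was 0.42 ± 0.13. PFKFB3, MXI1, ANKRD37 and KDM3A changed by 0.37 to 0.41. EGLN3 and EGLN1, the oxygen-sensing prolyl hydroxylases, changed by 0.20 and 0.15, and the glycolytic enzymes PFKL, PGK1 and ALDOA by 0.14, 0.13 and 0.12. LDHA changed by 0.07 ± 0.04, ENO1 by 0.07 ± 0.05, PKM by 0.07 ± 0.08, GAPDH by 0.05 ± 0.04 and HK1 by 0.00 ± 0.04. The glucose carrier SLC2A1 changed by 0.11 ± 0.06. ADM, a vessel-dilating peptide, and NDRG1 did not share a direction: ADM rose in NCI-H446 by 1.51 ± 0.29 (limma adjusted p = 0.00383) and was lower in COLO668 by 0.47, and NDRG1 rose in SHP-77 and COLO668 and was lower by 0.28 in NCI-H446. CA12, a carbonic anhydrase, had the lowest mean change, -0.08 ± 0.05. Its other probe sets changed by -0.01 to 0.11.

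The promoters of 4 members that were higher in 6 of 6 lines are shown because HIF factors bind the letters ACGTG or GCGTG and BHLHE40 itself binds CACGTG. They are the 250 bases before the annotated start, 5' to 3' on the gene's strand, from RefSeq on GRCh38.p14. Capitals mark ACGTG and GCGTG and, for the other strand, CACGT and CACGC, and a CACGTG holds a match on each strand. They lie at chr3:4979187-4979436 (plus strand) for BHLHE40, chr10:72273674-72273923 (plus) for DDIT4, chr10:131981924-131982173 (minus) for BNIP3 and chr17:28576896-28577145 (minus) for ALDOC.
BHLHE40: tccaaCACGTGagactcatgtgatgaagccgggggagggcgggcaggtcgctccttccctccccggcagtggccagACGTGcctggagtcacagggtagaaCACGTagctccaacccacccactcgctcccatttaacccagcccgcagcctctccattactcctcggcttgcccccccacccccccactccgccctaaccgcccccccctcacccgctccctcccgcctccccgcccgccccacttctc
DDIT4: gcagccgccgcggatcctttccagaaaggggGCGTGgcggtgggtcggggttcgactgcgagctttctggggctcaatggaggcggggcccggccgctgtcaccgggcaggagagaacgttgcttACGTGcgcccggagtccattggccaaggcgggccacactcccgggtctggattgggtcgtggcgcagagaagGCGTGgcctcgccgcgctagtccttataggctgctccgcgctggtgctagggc
BNIP3: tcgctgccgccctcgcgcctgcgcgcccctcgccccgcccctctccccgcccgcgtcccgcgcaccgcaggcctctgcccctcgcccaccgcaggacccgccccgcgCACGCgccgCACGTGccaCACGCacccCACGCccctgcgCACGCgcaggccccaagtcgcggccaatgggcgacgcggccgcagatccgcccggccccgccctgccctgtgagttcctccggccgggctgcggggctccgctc
ALDOC: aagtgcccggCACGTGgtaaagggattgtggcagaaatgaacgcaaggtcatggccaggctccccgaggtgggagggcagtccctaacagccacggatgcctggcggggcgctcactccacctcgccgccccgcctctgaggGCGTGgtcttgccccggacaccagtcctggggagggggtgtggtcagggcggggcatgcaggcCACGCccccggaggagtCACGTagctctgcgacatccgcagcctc
BHLHE40 held 4 matches, DDIT4 3, BNIP3 6 and ALDOC 5, and CACGTG stood once in each except DDIT4. Of the list, 32 of 36 genes matched an entry, with 51 promoters in all, since a gene can have several starts. Such letters were found in 70.6% of those, in 52.7% of the 17772 promoters of tested genes and in 43.2% of all 35116. CACGTG was found in 17.6%, 7.97% and 6.34%. These shares describe letters and not binding.

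Within single lines the hypoxia and glycolysis shift was concentrated in COLO668 and SHP-77. In COLO668 limma called 18 of 36 members higher at day 7 and 0 lower, where 3.24% of all genes were called higher. In SHP-77 it called 15 higher and 0 lower, where 3.28% of all genes were. In NCI-H446 it called 2 higher, ADM and BNIP3L, against 0.319% of all genes higher and 0.0782% lower. In NCI-H526, NCI-H510 and NCI-H146 it called 0 members, against 0.0261%, 0.208% and 0.0847% of all genes higher, and in NCI-H146 0.0456% lower. List medians were 0.41 in COLO668, 0.39 in SHP-77, 0.13 in NCI-H526, 0.11 in NCI-H446, 0.10 in NCI-H146 and 0.02 in NCI-H510. Without regard to a test, both day 7 arrays lay above both day 2 arrays for 32 of 36 members in COLO668 (21.4% of all genes), 28 in SHP-77 (25.1%), 22 in NCI-H146 (20.8%), 20 in NCI-H446 (21.7%), 13 in NCI-H526 (20.1%) and 10 in NCI-H510 (25.7%). In NCI-H510 the members' share, 10 of 36, was near that of all genes. The moderated F test called 11 of the 36 members as differing between lines, against 2.33% of all genes.

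Leaving out arrays did not even out RNA integrity in COLO668. Its remaining day 7 array had an ACTB signal of 0.30, against 0.64 and 0.47 on its day 2 arrays. The counts in SHP-77 and COLO668 were not lower without the arrays of raised ACTB signal. Without them 15 members were called in SHP-77 and 22 in COLO668, against 0.827% and 9.15% of all genes, and 5 in NCI-H446, against 0.515%, while NCI-H526 and NCI-H510 again had 0, against 0.0326% of all genes higher in NCI-H526 and, in NCI-H510, 0.384% higher and 1.06% lower. In the shared test 22 members were then higher at an unadjusted p below 0.05, against 7.46% of all genes higher and 5.82% lower, and the list median was 0.27. NCI-H526 had 1 day 2 array, replicate 2, in which BHLHE40, HK2, VEGFA and ALDOC stood nearer to the day 7 arrays. Without it 21 members were higher in the shared test, as with it. Leaving out each array in turn gave 17 to 23 and each line 15 to 21. Without COLO668 15 members were higher and the list median was 0.12.

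**Figure D3:**
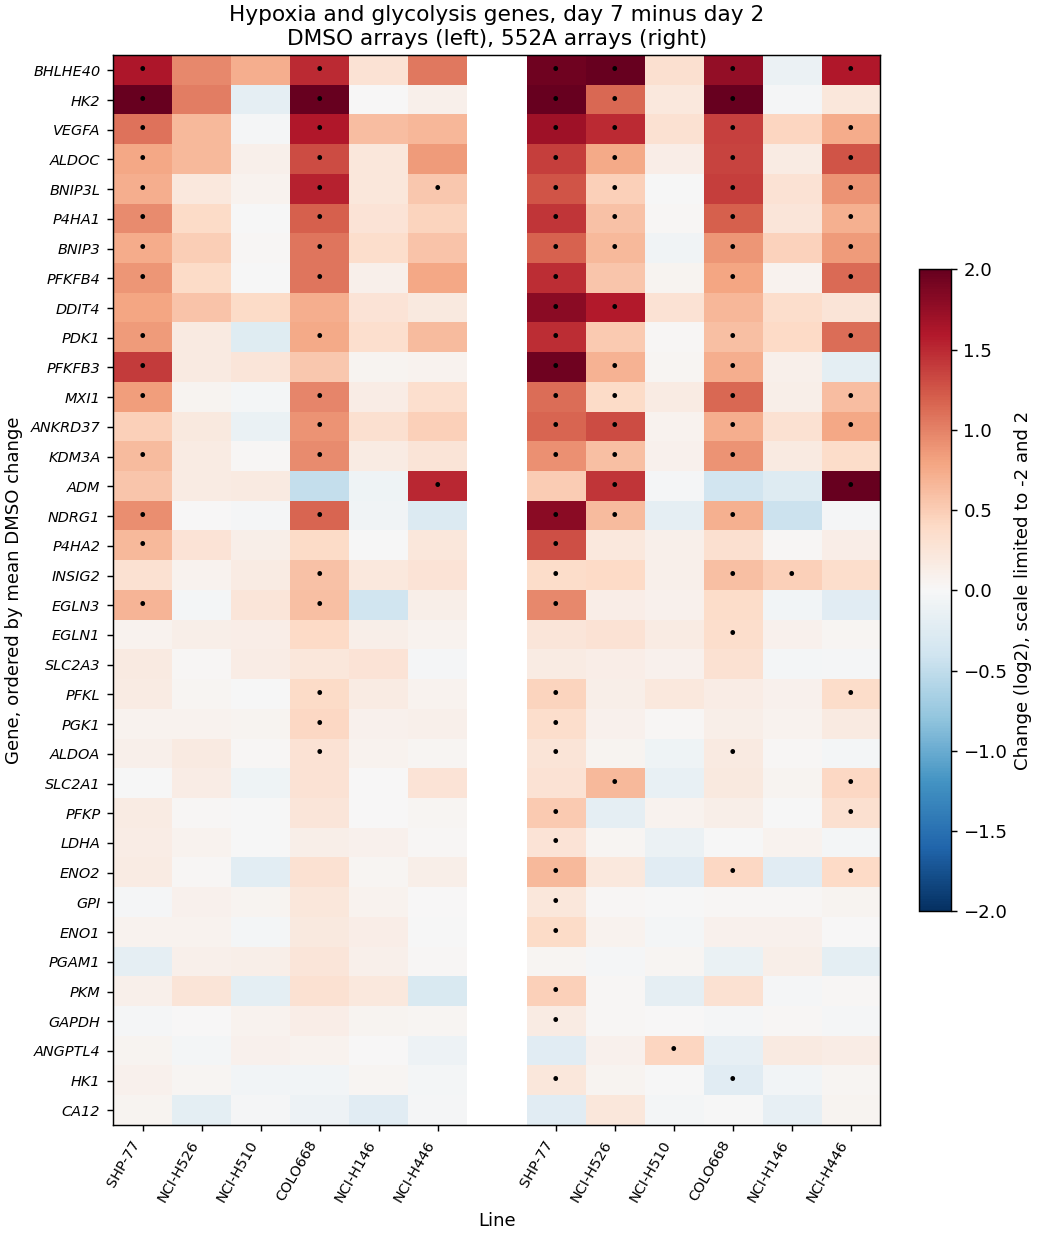
Each cell is the change from day 2 to day 7 (log2, red higher and blue lower at day 7, colours limited to 2 in either direction) of 1 of the 36 tested hypoxia and glycolysis genes in 1 line, for DMSO arrays on the left and 552A arrays on the right, and a dot marks an adjusted p below 0.05 within that line. SHP-77 and COLO668 carry 15 and 18 called rises under DMSO, and NCI-H510 is pale throughout, with BHLHE40 at 0.73 as its largest change.

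The next list by median was cholesterol and fatty acid synthesis, which sterol-sensing factors switch on when membrane cholesterol falls. Of 30 genes tested, 12 were higher and 1, IDI1, was lower at an unadjusted p below 0.05, against 6.01% and 3.82% of all genes. The median change was 0.13. INSIG1, which holds the sterol sensor in the endoplasmic reticulum and is itself a target, changed by 0.49 ± 0.11 and was higher in 6 of 6 lines. Its arrays were 9.79 and 10.30 at day 2 against 10.69 and 11.39 at day 7 in SHP-77, and 10.53 and 10.83 against 10.96 and 11.83 in COLO668. SREBF1, a master regulator of lipid synthesis, rose in SHP-77 by 1.19 ± 0.16 (limma adjusted p = 2.23e-06), and SCD, which makes unsaturated fatty acids, by 0.97 ± 0.16 (adjusted p = 0.000136). Both also rose in COLO668, by 0.53 and 0.68, while in NCI-H510 they differed by -0.14 and -0.13. Limma called 12 of 30 members higher in SHP-77 (3.28% of all genes) and 7 in COLO668 (3.24%), and 0 in the other 4 lines. Without the arrays of raised ACTB signal it called 5 in SHP-77 (0.827%), 11 in COLO668 (9.15%) and 3 in NCI-H446 (0.515%). SREBF1 in COLO668 was then 0.37 and no longer called (adjusted p = 0.161), while SREBF1 in SHP-77 was 0.89 and SCD 0.95 and 0.69, all 3 still called.

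The arrest and ribosome lists had medians of opposite sign. Of 29 tested genes of cell cycle arrest and p53 response, 9 were higher and 0 lower at an unadjusted p below 0.05. The shares of all genes were 6.01% and 3.82%, and the list had a median change of 0.08. The 9 genes included PLK2 (0.35 ± 0.06), CCNG2 (0.36 ± 0.10) and the CDK inhibitor CDKN1C (0.37 ± 0.12). CCNG2, which FOXO factors induce in resting cells, rose in COLO668 from 10.17 and 10.30 to 10.95 and 11.34 and in SHP-77 from 10.58 and 10.59 to 11.17 and 11.09, and the lines differed (F test, adjusted p = 0.0198). CDKN1A, the best known p53 target, changed by 0.12 ± 0.06. Of 28 MYC family and ribosome biogenesis genes, 0 were higher and 9 lower, against 6.01% and 3.82% of all genes, with a median of -0.10. UTP20, which processes the 18S ribosomal RNA precursor, fell in COLO668 from 9.98 and 9.93 to 9.27 and 9.30 (adjusted p = 0.000282). Limma called 9 of the 28 lower in COLO668 and 2 in SHP-77, against 2.04% and 4.96% of all genes, and without the arrays of raised ACTB signal 10 lower and 1 higher in COLO668, against 6.31% lower, and 0 in SHP-77. UTP20 in COLO668 was then -0.65 and still called. MYC itself changed by 0.19 ± 0.13, MYCN by 0.12 ± 0.06 and MYCL by -0.01 ± 0.07.

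Genes of DNA replication had their lowest list median in SHP-77. Of 41 tested, limma called 9 lower there and 0 higher, with a median of -0.21 against -0.04 to 0.03 in the other lines, where 4.96% of all genes were called lower. MKI67, a protein of dividing cells, fell in SHP-77 by 0.76 ± 0.24 (limma adjusted p = 0.0376), from 10.19 and 10.65 to 9.23 and 10.09, where the lower day 7 value came from the array with an ACTB signal of 1.67. Without the arrays of raised ACTB signal the median of the replication list in SHP-77 was -0.20, and MKI67 changed by -0.33. A lone day 7 array was then left there, so no call is given for these. In COLO668, 6 of 41 genes of G2 and mitosis were called higher and 0 lower (3.24% and 2.04% of all genes), and without those arrays 13 higher and 2 lower (9.15% and 6.31%). Heat shock genes were called lower in SHP-77 for 7 of 20, oxidative stress genes for 7 of 28 and respiratory chain subunits for 3 of 27, against 4.96% of all genes, and without the arrays of raised ACTB signal for 0, 2 and 0, against 0.274%. For these lists the part of RNA integrity in the change was not tested. HSPH1, a chaperone of the HSP110 family, was lower in 6 of 6 lines with days that did not overlap, by 0.17 ± 0.05 (adjusted p = 0.362).

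Amino acid and unfolded protein stress had 5 of 34 members higher and 0 lower at an unadjusted p below 0.05, against 6.01% and 3.82% of all genes. The 5 included CTH, which makes cysteine, at 0.29 ± 0.06 and DNAJB9 at 0.33 ± 0.08. Among mesenchymal genes 8 of 36 were higher and 0 lower at an unadjusted p below 0.05, against the same shares of all genes. FN1, which encodes fibronectin, rose in SHP-77 by 0.91 ± 0.20 (adjusted p = 0.00308) and in COLO668 by 0.75 (adjusted p = 0.0137), and SPARC changed by 0.40 ± 0.07. The MondoA glucose-sensing list, whose target TXNIP reports glucose phosphate in the cell, had a median of -0.01, and TXNIP changed by 0.14 ± 0.09 with 4 of 6 lines higher.

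Cell identity genes had small mean changes. Neuroendocrine markers had a median change of 0.00, with 2 of 30 higher and 0 lower at an unadjusted p below 0.05, a share near the 6.01% of all genes that were higher. The 2 were SCG5, a chaperone of prohormone processing, at 0.36 ± 0.06, and CPE at 0.14 ± 0.05. INSM1 changed by -0.03 ± 0.04, CHGA by 0.04 ± 0.07 (0.39 in SHP-77, adjusted p = 0.006, and 0.23 without the raised array, adjusted p = 0.347), GRP by -0.09 ± 0.07, VIM by 0.13 ± 0.07 and ZEB1 by -0.03 ± 0.09. POU2F3 in NCI-H526 changed by -0.37, and KDM1A, which encodes LSD1, by 0.02 ± 0.05 over lines. Neural transcription factors and Notch pathway genes had medians of 0.03 and -0.01. A pure line should lack other cell types, and the 17 immune, 12 fibroblast and 12 endothelial markers on the array had mean levels per DMSO array of 6.64 to 7.56 at day 2 and 6.71 to 7.56 at day 7. PTPRC and NKG7 of leukocytes and TIE1 and EMCN of endothelium were in every DMSO group of both days under 6.09, the level below which a gene is called dim here. PTPRC reached 7.81 in the 552A day 7 arrays of NCI-H146. Other markers were high in single lines. CDH5, the cadherin of endothelium, had means of 11.47 at day 2 and 10.68 at day 7 in NCI-H446 and at most 5.43 in the other lines. CLDN5, a tight junction protein, had 10.11 and 10.91 in SHP-77. ACTA2, smooth muscle actin, had 8.30 and 8.27 in NCI-H146 and 8.36 and 8.01 in NCI-H446. Of the 7 immune, 11 fibroblast and 8 endothelial genes tested, 1, 0 and 0 passed an unadjusted p of 0.05, against 9.83% of all genes. In such bulk RNA, fewer cells of a type and less RNA per cell cannot be told apart.

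**Figure D4:**
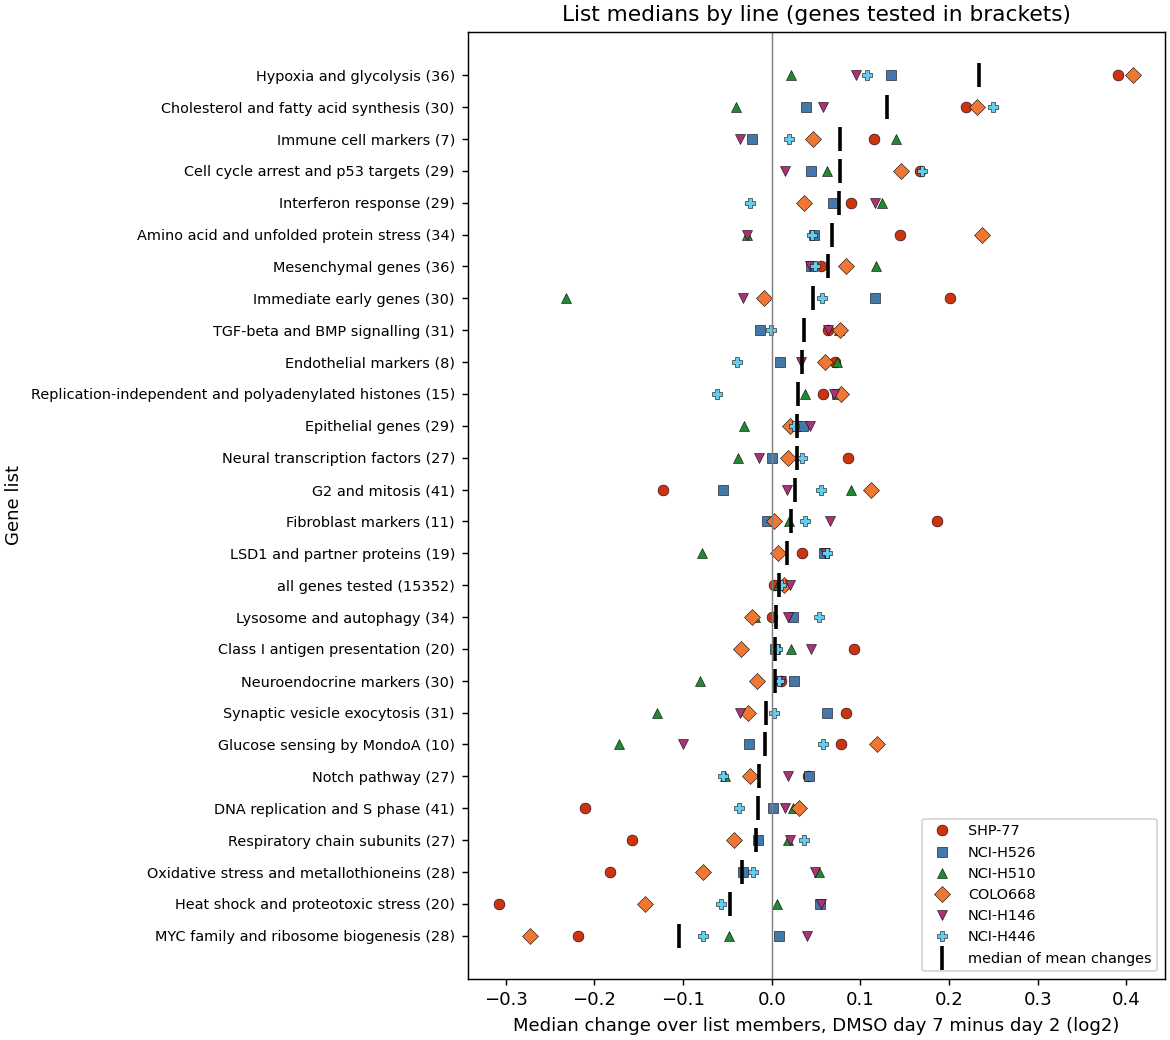
For each gene list (number of genes tested in brackets) the median change of its members from day 2 to day 7 (log2) is plotted by line, with a black bar for the median of the changes averaged over the 6 lines. Hypoxia and glycolysis has the highest bar at 0.23, with SHP-77 and COLO668 at 0.39 and 0.41, and MYC family and ribosome biogenesis the lowest at -0.10.

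Tested within a line, day 7 against day 2 gave 1266 called genes in SHP-77 (504 higher, 762 lower), 811 in COLO668 (498 higher, 313 lower), 85 in NCI-H510 (32 higher, 53 lower), 61 in NCI-H446 (49 higher, 12 lower), 20 in NCI-H146 (13 higher, 7 lower) and 4 in NCI-H526, all higher. The error in these tests is the spread between arrays of one group, pooled over all 88, and the labels do not say that arrays were separate cultures, so that spread may be technical. Without the arrays of raised ACTB signal SHP-77 had 169 called genes (127 higher, 42 lower) and COLO668 2373 (1405 higher, 968 lower). The count in SHP-77 was thus lower and that in COLO668 higher than with them, and the part of RNA integrity in either was not tested. After quantile normalization 51.8% of the calls in SHP-77 were higher, against 39.8%, and 58.6% in NCI-H510, against 37.6%.

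The genes with the largest called changes differed by line, with no test that they were particular to it. In NCI-H510, CXCL13, a chemokine, rose from 5.87 and 6.29 to 7.51 and 8.13 (adjusted p = 9.99e-08) and MUCL1, a small secreted mucin, from 9.64 and 10.23 to 11.15 and 11.74 (adjusted p = 3.39e-05). CXCL13 passed the filter on low levels through the day 7 arrays of NCI-H510 alone, and its day 2 mean there, 6.08, was dim, so this change is a description. It stood between 4.02 and 5.51 in the other 5 lines at both days. In NCI-H146, COX7B2 rose by 1.21 ± 0.22, from a mean of 6.27 to 7.48, and it was dim in the other lines at both days. Of its day 2 and day 7 means, only those of day 7 in NCI-H146 exceeded the filter on low levels. They were 7.48 under DMSO and 7.955 under 552A, so this change is a description too. AKR1C1, which reduces steroids and aldehydes, fell in NCI-H146 from 8.75 and 8.64 to 7.67 and 7.18. In COLO668 its relative AKR1C3 fell from 8.20 and 8.43 to 6.20 and 6.59 (adjusted p = 0.000222), while AKR1C1 had means of 6.69 and 6.59. NQO1 and ME1, targets of the transcription factor NFE2L2 as AKR1C genes are, fell in COLO668 by 1.00 ± 0.17 and 1.11 ± 0.12. Of the 28 oxidative stress genes tested, 3 were called lower in COLO668 and 0 higher, against 2.04% and 3.24% of all genes. The list median there was -0.08. AKR1C3 changed by -1.05 in NCI-H146 and -0.44 in SHP-77, and NQO1 by -0.33, -0.45 and -0.34 in SHP-77, NCI-H146 and NCI-H446, none of them called. In SHP-77 the histone genes H2AC8 and H2BC21 rose by 2.20 ± 0.48 and 1.70 ± 0.30, and CALB2, a calcium-binding protein, fell by 1.34 ± 0.25. DHX9 in SHP-77 fell from 10.09 and 10.35 to 7.53 and 9.15, the lower value again on the array with an ACTB signal of 1.67, and without it the change was -1.07 and not called (adjusted p = 0.0684). AKR1C3, NQO1 and ME1 in COLO668 and H2AC8, H2BC21 and CALB2 in SHP-77 were still called without the raised arrays, at -1.72, -0.80, -1.02, 2.06, 1.53 and -1.34. In NCI-H526, FOXO1 rose by 0.76 ± 0.15 (0.44 in SHP-77, not called) and ART3 by 0.79 ± 0.16. The ART3 means there were 6.89 at day 2 and 7.67 at day 7, and ART3 was dim in the other lines. Of its day 2 and day 7 means, only that of day 7 under DMSO in NCI-H526 exceeded the filter on low levels. Under 552A the ART3 means in NCI-H526 were lower at day 7, 5.45 against 5.82 at day 2. The ART3 change is therefore a description. In NCI-H446, SPATS2L fell by 0.92 ± 0.18.

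The size of the change differed between lines for some genes. The moderated F test called 357 genes as differing between lines (2.33%), and 691 without the arrays of raised ACTB signal. KLF4, a transcription factor of resting epithelia, fell in NCI-H510 from 7.96 and 7.97 to 6.74 and 5.92 (F test between lines, adjusted p = 2.46e-08). In NCI-H446 it was 4.57 and 4.70 at day 2 and 5.48 and 5.67 at day 7, all of them dim, so no opposite direction is read from it. FOS, an immediate early gene that signals switch on within minutes, rose in NCI-H446 from 8.82 and 7.91 to 10.57 and 10.66 (adjusted p = 0.026). In NCI-H510 it was 12.03 and 11.98 at day 2 and 11.32 and 9.62 at day 7, so that its 2 day 7 arrays were far apart. FOSB, its relative, fell in NCI-H510 by 1.57 ± 0.29 (adjusted p = 0.00308). ATP8A1, a lipid flippase, rose in COLO668 by 0.65, and in NCI-H146 it was dim at both days, with means of 5.52 and 4.48. LUM, a matrix protein, was dim in SHP-77 at both days and in NCI-H446 at day 2, and stood at 7.51 and 7.49 on the day 7 arrays of NCI-H446.

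The day 4 arrays were read for the timing of the changes, which was not alike in all lines, with no test of that difference. For hypoxia and glycolysis genes the median change from day 2 to day 4 was 0.03, with 1 of 36 higher at an unadjusted p below 0.05 (3.62% of all genes), and from day 4 to day 7 it was 0.16, with 20 of 36 higher (3.80%). Both steps share the day 4 arrays. Against the line's day 2 mean, each day 4 array's list median lay below both day 7 arrays in COLO668, SHP-77, NCI-H526 and NCI-H146. In COLO668 the day 4 medians were 0.11 and 0.15. In NCI-H526 day 2 and day 7 overlapped, with -0.08 and 0.08 against 0.06 and 0.16. NCI-H446 had 0.09, -0.16 and 0.13 at day 4 and 0.19 and 0.07 at day 7, and NCI-H510 0.06 and 0.04 against 0.01 and 0.03. The NCI-H446 array at -0.16 had an interquartile range of 2.56, against 3.13 and 3.00 on the line's other day 4 arrays. HK2 stood at 8.05 and 7.80 at day 4 in SHP-77 and at 8.88 and 8.82 in COLO668, between its day 2 and day 7 arrays and nearer to day 2. In NCI-H446 the 3 day 4 arrays of BHLHE40 stood at 8.82, 9.78 and 10.11, the lowest near the day 2 arrays and the others at or above the day 7 arrays. From day 2 to day 4 limma called 9 genes (0.0586%), 2 higher and 7 lower. EGR1, an immediate early factor, fell by 2.21 ± 0.29 (adjusted p = 0.0404), HNRNPA1, which splices RNA, by 0.97 ± 0.12 (adjusted p = 0.0354) and RPL7, a ribosomal protein gene, by 0.49 ± 0.05 (adjusted p = 0.00911), each in 6 of 6 lines. Their mean changes from day 2 to day 7 were -0.20, -0.01 and 0.02, though EGR1 differed by -1.48 in NCI-H146 and 1.22 in NCI-H446. The probe set used for RPL7 stood at 6.39 to 8.73 on the DMSO arrays, around the array medians of 7.36 to 7.46. Other probe sets of RPL7 were not compared at day 4, so its change is read for this probe set only. Among the others that fell by day 4, NUP58 and MIAT stood at -0.38 and -0.29 at day 7. From day 4 to day 7 limma called 1 gene (0.00651%), RNA45SN5, the precursor of ribosomal RNA, which rose by 2.04 ± 0.21 (adjusted p = 0.0466). That SE is the spread between lines and not between arrays. The day 7 arrays of RNA45SN5 were far apart within NCI-H526, NCI-H510 and NCI-H146, as given below, and overlapped its day 2 arrays in 4 lines.

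In the 552A arm, days of culture and days under 552A run together and cannot be told apart. The 552A arrays of the same lines gave day 7 against day 2 in other samples. Their median change for the hypoxia and glycolysis list was 0.29, with 18 of 36 higher and 0 lower at an unadjusted p below 0.05 (6.96% of all genes higher) and 14 higher in 6 of 6 lines (3.77% of all genes, with 2.53% lower). BHLHE40 changed by 1.28 ± 0.30, HK2 by 1.15 ± 0.40, VEGFA by 1.00 ± 0.19 and ALDOC by 0.84 ± 0.19. Limma called 29 of 36 members higher in SHP-77 (14.3% of all genes), 18 in COLO668 (16%), where 1 was lower, 15 in NCI-H526 (2.31%, with 0.814% lower) and 15 in NCI-H446 (8.78%), and 1 each in NCI-H510 (1.14%, with 0.847% lower) and NCI-H146 (1.22%). NCI-H510 and NCI-H146 thus had 0 called members under DMSO and 1 under 552A, and the difference from other lines in these counts was not tested. In the shared test of the 552A arrays limma called 0 genes, with 1069 higher and 538 lower at an unadjusted p below 0.05. The array-level fit called 2461 higher and 1569 lower (16% and 10.2%).

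The change over time in the 552A arm minus that in the DMSO arm gave 0 called genes in limma, with 993 at an unadjusted p below 0.05 (6.47%), and a p that misses the threshold does not show that the arms were alike. For BHLHE40 the difference between arms was 0.26, for HK2 0.27 and for VEGFA 0.24. Across the 15352 genes, which are not independent replicates, the mean changes in both arms correlated with r = 0.69, and within lines r was 0.78 in SHP-77, 0.59 in NCI-H146, 0.56 in NCI-H510, 0.51 in NCI-H446, 0.50 in COLO668 and 0.21 in NCI-H526. Arrays of a line and day may share culture and handling, and 3 of the 5 arrays of raised ACTB signal in the series were 552A arrays of day 7, 2 of SHP-77 and 1 of COLO668. Of the 1266 genes called in SHP-77 under DMSO, 1017 were called in the same direction under 552A, which is 80.3% of the DMSO calls and 23.4% of the 4354 calls under 552A. In COLO668 the same count was 566 of 811, 69.8% and 13.4%, and 9 were called in opposite directions. The ribosome biogenesis list had 0 higher and 15 of 28 lower at an unadjusted p below 0.05 in the 552A arm (3.5% of all genes lower) and a median of -0.19. Sterol synthesis had 3 of 30 higher there (6.96% of all genes higher), with INSIG1 at 0.31 ± 0.16.

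**Figure D5:**
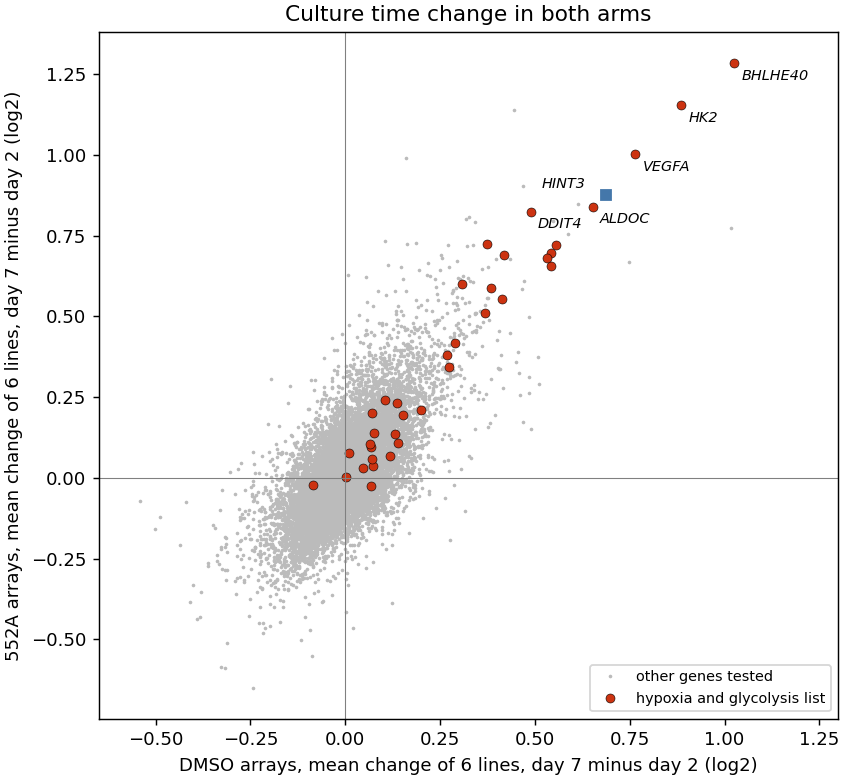
Each point is a gene, with its mean change over 6 lines from day 2 to day 7 (log2) in DMSO arrays on the x axis and in 552A arrays on the y axis. The hypoxia and glycolysis genes (red) mostly lie to the upper right of 0, from CA12 at -0.08 to BHLHE40 at 1.03 on the x axis, and HINT3 (blue square) is at 0.69.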

How the data were processed

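The authors deposited log2 signals for each probe set, which were used unaltered. Program, background correction and scaling were not given in the sources used here. Of 54675 probe sets, 41091 had 1 gene symbol, 1801 several and 11721 none in the platform annotation, 54 had an unmatched Entrez ID and 62 were controls. Kept were probe sets with a mean over 7.41, the median of all values, in any of the 42 groups of line, treatment and day. The brightest probe set over all arrays stood for its gene, those ending in _x_at set aside where another existed, which left 15352 of 19775 genes. Genes of a list with no such probe set were left out.

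Models were fitted in R 4.3.3 with limma 3.58.1 by lmFit and eBayes. P-values are two-sided, were adjusted over all genes by Benjamini-Hochberg, and counted as called below 0.05. The shared test used 1 difference per line (prior 5.11 degrees of freedom). Tests within a line and the F test used a mean per group over 88 arrays, which left 46 residual and added 6.52 prior degrees of freedom. Both were tested on simulated data. The named genes were those called or with the smallest p and of 1 sign in 6 of 6 lines, the largest called changes per line, the largest range over lines, the 4 largest members of each list and a fixed set. The 9 genes of day 4 and values of other list members were chosen after the data were seen. Members and all 27 lists were chosen with earlier results of these data known. Figures were drawn with matplotlib 3.10.9.

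Alternatives were quantile normalization, other filters, the mean of probe sets, an intensity trend, the removal of lines, of arrays or of arrays with raised ACTB signal, that signal as a covariate, array-level fits and the replicate number as a block. Within-line and array-level fits of the 552A arrays, list counts without single arrays and some single-gene values without the raised arrays were added after the data were seen. Precision is limited by the number of arrays, which have no sequencing depth.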

Additional observations from a re-analysis of the deposited data

Results flagged for a closer look

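The 6 changes of a gene or list median, 1 per line, were searched for a line standing far from the others by Dixon's test, which chance alone passes in about 1 of 20 sets. Of 79 sets, 6 passed. UNKL changed by -0.62 in COLO668 against -0.31 to -0.16 in the other lines, and MKI67 by -0.76 in SHP-77 against -0.16 to 0.13. Among list medians, that of DNA replication and S phase was -0.21 in SHP-77 against -0.04 to 0.03. Epithelial genes had a median of -0.0312 in NCI-H510 against 0.02 to 0.04. Replication-independent and polyadenylated histones had -0.06145 in NCI-H446 against 0.04 to 0.08. Fibroblast markers had 0.19 in SHP-77 against -0.01 to 0.07. Without the array of raised ACTB signal the SHP-77 values were 0.04 for fibroblast markers, -0.33 for MKI67 and -0.20 for DNA replication. The fibroblast median then lay within the range of the other lines, and Dixon's test was not repeated.

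The change differed between lines by the moderated F test in 10 of the 52 genes looked at, against 2.33% of all genes. FOS, KLF4, LUM, FOSB, HK2 and AKR1C3 were among the 52 because they differ between lines, so the count is no evidence. The adjusted p was 2.46e-08 for KLF4, 0.000257 for HK2, 0.0021 for LUM, 0.00657 for FOSB, 0.00746 for FOS, 0.013 for SCD, 0.0197 for AKR1C3, 0.0198 for CCNG2, 0.0322 for VEGFA and 0.0418 for DDIT3. The gene DDIT3, a transcription factor of the unfolded protein response, rose in SHP-77 by 0.75 and differed by -0.17 to 0.36 in the other lines.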

How the results depend on the processing

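The shared test gave 1 called gene, and 0 with the mean of all probe sets, 9 for day 4 against day 2, 678 at array level, 1 to 2 with a line left out and 0 to 1 with an array left out. Other shared settings gave 1, and the shared 552A test and the test of the arms' difference gave 0 throughout. The replicate numbers do not pair the samples: same-numbered arrays of day 2 and day 7 had correlated deviations of -0.19 to 0.36, over 0.1 only in COLO668. With the replicate number as a block the array-level count was 533, and within a line a fit of the DMSO arrays alone with that block gave 0 in NCI-H526, 28 in NCI-H510 and 34 in NCI-H446. That fit changed the arrays as well as the block, so neither is shown to move a count. Quantile normalization gave 1935 in SHP-77, 1514 in COLO668 and 970 in the F test. The mean of probe sets gave 2 in NCI-H526 and 37 in NCI-H446. Without the 5 arrays of raised ACTB signal, 2 of them among the 24, the counts were 169 in SHP-77, 221 in NCI-H510, 2373 in COLO668, 100 in NCI-H446 and 691 in the F test, and with that signal as a covariate 130 in SHP-77 and 1338 in COLO668. The 24 arrays alone gave 0 in NCI-H526, 39 in NCI-H510, 8 in NCI-H146 and 195 in the F test. With 1 array left out, counts ranged from 103 to 2773 in SHP-77 (103 without day 7 replicate 1, 2773 without day 7 replicate 2), 204 to 1917 in COLO668 (204 without day 2 replicate 1, 231 without day 7 replicate 2, 1917 without day 7 replicate 1), 0 to 9 in NCI-H526, 14 to 49 in NCI-H510, 1 to 19 in NCI-H146, 13 to 46 in NCI-H446 and 182 to 1541 in the F test. A lone array was assumed to vary like the other groups. The result TRDV3, change in NCI-H446, was -0.82 as reported and 0.0813 with no filter. Of 6378 alternative values of named genes in the shared test, 6239 kept direction and side of the threshold, 9 lost a call, 130 gained one and 0 reversed, and of 193 within a line 174 kept both, 18 lost a call and 1 reversed. The causes were not tested.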

Other observations

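The precursor of ribosomal RNA and some immediate early genes differed between arrays of 1 line and day. RNA45SN5 at day 7 was 12.39 and 9.31 in NCI-H526, 10.86 and 8.71 in NCI-H510 and 12.02 and 9.52 in NCI-H146, with replicate 1 the higher. On the same pairs of arrays FOS was 11.32 and 9.62 in NCI-H510 and 9.28 and 7.43 in NCI-H146, and EGR1 was 12.48 and 11.45, and 10.63 and 8.42. The second array of these pairs thus lay nearer to day 4, where FOS stood at 9.0 and 9.59 in NCI-H510 and at 7.86 and 7.32 in NCI-H146. HNRNPA1 showed the same order at day 7, with 11.35 and 10.29 in NCI-H510 and 10.51 and 9.72 in NCI-H146. These pairs were chosen after their values were seen.

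Several genes outside the lists were of 1 sign in 6 of 6 lines with small p but were not called. NFIL3, a clock and immune transcription factor, changed by 0.29 ± 0.05, with day 7 arrays above both day 2 arrays in 6 of 6 lines. RLN2, which encodes the hormone relaxin 2, changed by 0.40 ± 0.06, and BLVRB, which reduces biliverdin, by 0.25 ± 0.04. Lower at day 7 were CYP1A1, a target of the aryl hydrocarbon receptor, by 0.49 ± 0.10 on average, MIA2 by 0.50 ± 0.10 and the helicase gene DDX51 by 0.29 ± 0.06. CYP1A1 in NCI-H526 differed by less than 0.01.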
